A study of Homo sapiens with 15 samples.

Results

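The 34 genes described here encode proteins that repair DNA interstrand crosslinks, the lesion in which a platinum drug ties both strands of the helix together. They are a list of Fanconi anemia, homologous recombination and translesion synthesis genes, chosen by function, and they are 34 of the 47634 gene identifiers in each count table. By role, 9 belong to the Fanconi core complex or its E2 enzyme, 2 form the pair that this complex ubiquitinates, 4 are nucleases or their scaffold, 9 are mediators of homologous recombination, 5 act in end resection or dissolution and 5 in translesion synthesis.

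A replication fork that meets a crosslink stalls, and the Fanconi core complex, with FANCL as its E3 ligase and UBE2T as its E2 enzyme, then attaches ubiquitin to FANCD2 and FANCI. Nucleases on the SLX4 scaffold unhook the crosslink, translesion polymerases copy past the unhooked base, and the broken sister duplex is resected and restored by BRCA-dependent homologous recombination. Cells that lack these genes are known to be sensitive to cisplatin.

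Messenger RNA was measured by QuantSeq, which sequences a fragment near the 3′ end of each polyadenylated transcript, in IGROV-CP20, a cisplatin-resistant human ovarian cancer cell line. There were 15 libraries, 3 biological replicates for each of 5 conditions. Cells were untreated, were given 50 µM cisplatin for 24 h, or received a drug at 10 µM for 24 h before that same cisplatin treatment, and this drug was Tranilast, Telmisartan or Amphotericin B. Tranilast is an anti-allergic drug, Telmisartan an angiotensin receptor blocker and Amphotericin B an antifungal polyene. No library held a drug without cisplatin, and cells of a parental sensitive line were not analysed here. The comparison of cisplatin with untreated cells asks how the crosslink repair genes respond to platinum in this line, and the comparisons of each combination with cisplatin alone ask how the drug alters that state.

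Total counts ranged from 1510620 to 3517041 per library. Values below are CPM (reads in each 1000000 counted) scaled with TMM factors, and a change is a log2 fold change with its standard error. A gene was called where the adjusted p of edgeR's quasi-likelihood test was under 0.05, with Benjamini-Hochberg adjustment over the 11113 genes tested, and the 34 genes all passed the filter on low counts. Replicate 1 of cisplatin and replicate 3 of Telmisartan + cisplatin stood apart from their groups. Their chi-square per degree of freedom against the other replicates was 26.4 to 43.1 and 37.8 to 44.1, whereas it was 2.24 to 8.07 in the remaining pairs. Mitochondrial ribosomal RNA made up 1.79% to 2.20% of counts in untreated cells and 2.10% to 2.53% with Tranilast + cisplatin. Its share was 13.7%, 5.61% and 3.41% with cisplatin alone, 10.8%, 12.9% and 3.61% with Telmisartan + cisplatin, and 12.3% to 14.8% with Amphotericin B + cisplatin. The part of this share in the results below was not tested.

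The epithelial genes KRT8, KRT18, EPCAM and CDH1 were detected in 15 of 15 libraries, while the ovarian carcinoma markers PAX8, WT1 and MUC16 reached at most 1, 1 and 4 counts in a library. Among 9 markers of other cells, CD3E, VWF and CDH5 had 0 counts. PTPRC, the leukocyte antigen CD45, was counted in 15 of 15 libraries at 2.45 to 75.4 CPM, and COL1A1, a fibroblast collagen, at 6.38 to 32.7 CPM. The summed level of these 9 markers was 73.4 to 82.7 CPM in untreated cells, 27.0 to 35.3 with cisplatin alone, 38.4 to 43.3 with Tranilast, 19.9 to 39.6 with Telmisartan and 26.1 to 28.1 with Amphotericin B. It thus moved with the treatment, and its part in the changes of the repair genes was not tested.

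**Figure D1:**
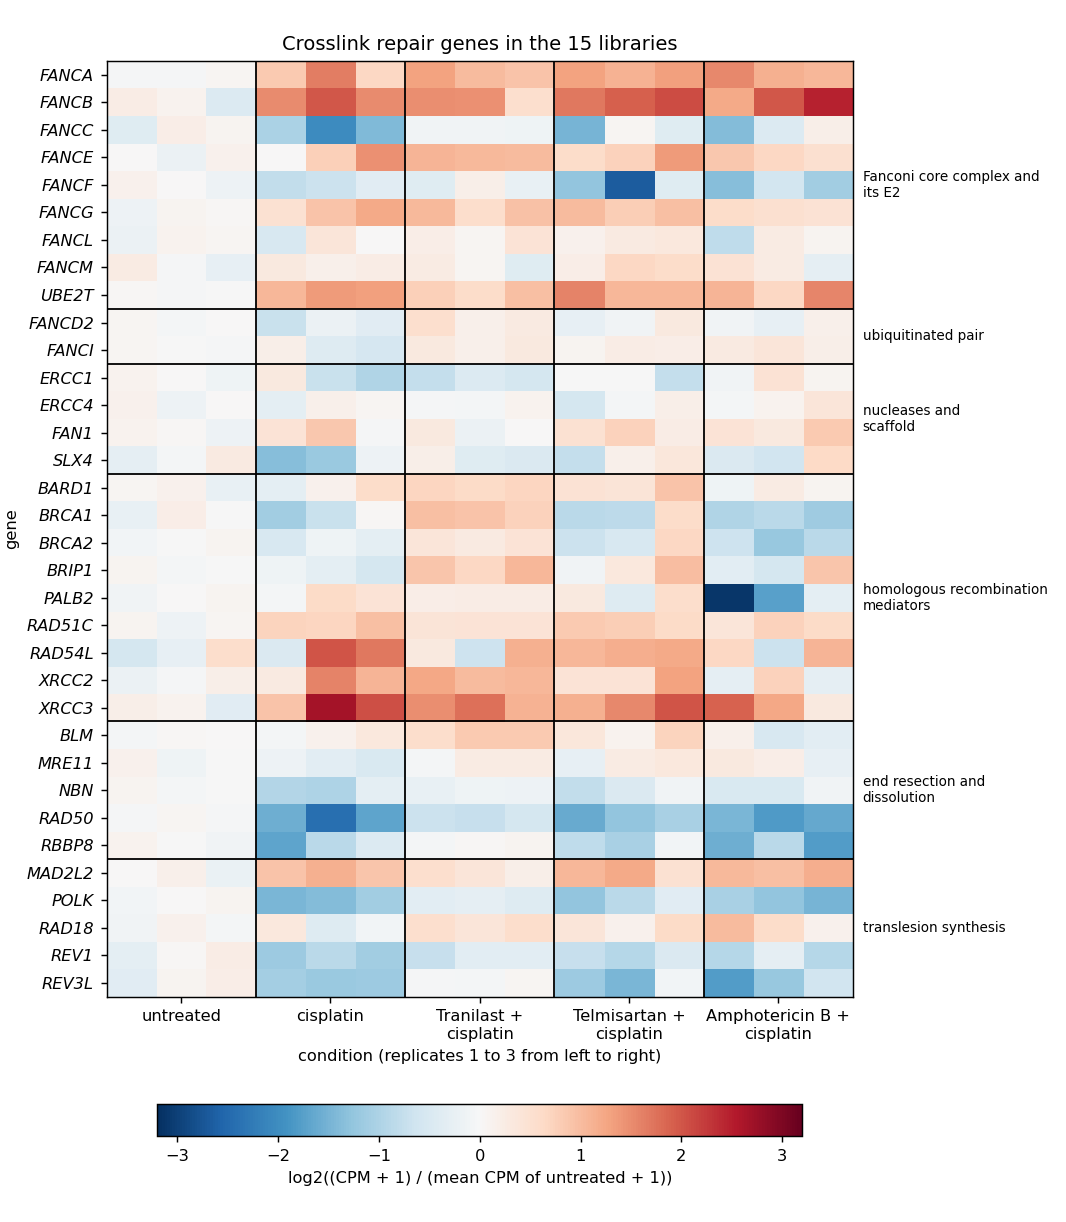
Each row is a gene, grouped by role, and each column a library of the 5 conditions; color gives log2 of (CPM + 1) over (mean CPM of untreated cells + 1), red above and blue below the untreated mean. RAD50, POLK, REV1 and REV3L are blue in the 3 cisplatin libraries, FANCB, UBE2T, XRCC3 and MAD2L2 are red, and the 3 Tranilast libraries resemble each other more closely than those of cisplatin alone do.

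Summed over the 34 genes, expression was 1409, 1477 and 1418 CPM in the 3 untreated libraries and 955, 1122 and 1232 CPM with cisplatin alone. With Tranilast + cisplatin the sum was 1683, 1634 and 1658 CPM, above each untreated and each cisplatin library. It was 1117, 1172 and 1625 CPM with Telmisartan, the highest of these in the replicate that stood apart, and 1040, 1097 and 1063 CPM with Amphotericin B. The sum weights abundant transcripts most and does not describe each gene. From untreated cells to cisplatin, the mean went from 285 to 79.3 CPM for RAD50, 228 to 121 for RBBP8 and 178 to 124 for BRCA1. Of the 34 genes, 16 had a log2 fold change above 0 in that comparison. With Tranilast + cisplatin, the mean of BRCA1 was 328 CPM. In a bulk sample, fewer cells with a transcript and less of it per cell cannot be told apart.

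With cisplatin, genes of the set were called in both directions. Against untreated cells, 17 of the 34 genes were called, which is 50.0%, beside 44.7% of all genes tested. Of these, 10 rose, where 21.1% of all genes did, and 7 fell, where 23.6% of all genes did. The median log2 fold change of the 34 genes was -0.02 and that of all genes -0.01. The libraries of the 2 conditions did not overlap for 20 of the 34 genes and for 53.5% of all genes, and at unadjusted p under 0.05 there were the same 17 genes, beside 52.2%. As a share, the calls were near the background. Scaled by library size only, which moved the median of all genes to -0.36, the split was 5 higher and 9 lower, beside 9.17% and 30.2% of all genes.

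The counts by role that follow stand beside 21.1% of all genes called higher and 23.6% called lower. Of the 9 genes of the Fanconi core complex and its E2 enzyme, 5 rose, 1 fell and 3 were not called. UBE2T, the E2 enzyme, was at 17.2, 16.4 and 16.8 CPM in untreated cells and at 36.4, 44.6 and 43.3 CPM with cisplatin, so that each treated library lay above each untreated one. Its log2 fold change was 1.30 ± 0.23 (SE, n = 3 per group; edgeR quasi-likelihood test, adjusted p = 0.00031), a 2.47-fold rise. FANCB, an X-linked subunit needed to activate the ligase, went from 3.83, 3.45 and 2.04 to 10.6, 15.2 and 10.7 CPM. This 3.93-fold rise (log2 1.97 ± 0.40, adjusted p = 0.00084) left no overlap between the groups. FANCA, the scaffold partner of FANCG, went from 9.88, 9.78 and 10.7 to 19.0, 33.8 and 16.7 CPM (log2 1.19 ± 0.27, adjusted p = 0.0019). FANCG itself went from 15.3, 18.4 and 17.8 to 24.6, 33.4 and 41.3 CPM (log2 0.95 ± 0.22, adjusted p = 0.0023), again without overlap.

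FANCE, which links the core complex to FANCD2, was also called higher (0.94 ± 0.31, adjusted p = 0.0196), although its first cisplatin library, at 13.4 CPM, lay within the untreated range. FANCC, the partner of FANCE and FANCF, went the other way. It was at 6.69, 10.6 and 9.67 CPM in untreated cells and at 3.92, 1.47 and 2.78 CPM with cisplatin (log2 -1.73 ± 0.48, adjusted p = 0.0074), the treated libraries lying wholly below. FANCF, FANCL and FANCM had log2 fold changes of -0.64, 0.02 and 0.30 and were not called. Of the pair that the complex ubiquitinates, FANCD2 stood at 42.7, 38.8 and 41.0 CPM before and 24.6, 35.8 and 31.4 CPM after cisplatin, without overlap but also without a call (-0.41 ± 0.21, adjusted p = 0.116). FANCI had a log2 fold change of -0.23 (adjusted p = 0.316). None of ERCC1, ERCC4, FAN1 and SLX4, the nucleases and their scaffold, was called at adjusted or unadjusted p, with values from -0.86 for SLX4 to 0.48 for FAN1.

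Among the mediators of homologous recombination, 4 of 9 rose and 0 fell. XRCC3, which forms a complex with RAD51C in homologous recombination, showed the largest increase of the 34 genes. It was at 6.06, 5.75 and 3.82 CPM in untreated cells and at 10.6, 38.3 and 25.02 CPM with cisplatin, 4.77-fold higher (log2 2.25 ± 0.43, adjusted p = 0.00056). The lowest of these cisplatin values belonged to the replicate that stood apart. RAD51C went from 25.2, 21.0 and 24.9 to 39.8, 38.8 and 46.9 CPM (log2 0.82 ± 0.18, adjusted p = 0.0017), without overlap. XRCC2, which acts in another complex of homologous recombination, went from 17.9, 19.9 and 23.2 to 25.2, 62.8 and 44.5 CPM (log2 1.12 ± 0.32, adjusted p = 0.0093). RAD54L, a DNA translocase of homologous recombination, was called at 1.80 ± 0.67 (adjusted p = 0.0376) on very few reads, 3, 5 and 13 against 2, 22 and 21 counts, and its groups overlapped. BRCA1, BRCA2, BARD1, BRIP1 and PALB2 were not called, and their log2 fold changes lay between -0.52 for BRCA1 and 0.41 for PALB2.

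End resection and translesion synthesis held most of the genes that fell. RAD50, the coiled-coil ATPase that holds DNA ends together, was among the most abundant transcripts of the set and had the smallest adjusted p. Its level was 279, 299.5 and 278 CPM in untreated cells and 96.3, 53.0 and 88.6 CPM with cisplatin. The log2 fold change was -1.85 ± 0.21 (adjusted p = 8.02e-06), and the highest treated library was far below the lowest untreated one. RBBP8, which encodes the resection factor CtIP, went from 247, 227 and 211 to 70.0, 124 and 169.6 CPM (log2 -0.91 ± 0.29, adjusted p = 0.0168). NBN, a subunit of the same complex as RAD50, fell by 0.72 on the log2 scale (adjusted p = 0.0181). MRE11, the nuclease of that complex, and the helicase gene BLM had values of -0.34 and 0.16 and were not called.

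In translesion synthesis 3 of 5 genes fell and 1 rose. POLK encodes a polymerase that extends from damaged templates. It went from 68.2, 73.1 and 77.9 to 25.8, 27.5 and 33.0 CPM (log2 -1.34 ± 0.22, adjusted p = 0.00012), without overlap. REV1, the scaffold to which other translesion polymerases bind, went from 21.997, 28.5 and 32.8 to 11.8, 14.72 and 12.3 CPM (log2 -1.10 ± 0.25, adjusted p = 0.0021). REV3L, the catalytic subunit of polymerase zeta, went from 28.4, 39.1 and 42.8 to 16.8, 15.7 and 15.9 CPM (log2 -1.19 ± 0.32, adjusted p = 0.0065). MAD2L2, which encodes the accessory subunit REV7 of the same polymerase, rose instead. It was at 38.3, 42.9 and 32.6 CPM in untreated cells and at 72.8, 84.9 and 71.5 CPM with cisplatin (log2 1.01 ± 0.20, adjusted p = 0.00074). The transcripts of REV3L and MAD2L2 thus moved in opposite directions. RAD18, the E3 ligase that ubiquitinates PCNA, was not called (-0.03).

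Some of these calls rested on single libraries, while their direction held. FANCE was lost without cisplatin replicate 3 (0.47, adjusted p = 0.222) and without untreated replicate 1 or 2 (0.94 and 0.84), and XRCC2 without cisplatin replicate 2 (0.79, adjusted p = 0.0789). NBN was lost without cisplatin replicate 2 (-0.60, adjusted p = 0.0761) or untreated replicate 1 (-0.69), and RBBP8 without untreated replicate 1 (-0.85, adjusted p = 0.0518). RAD54L was lost without untreated replicate 1 or 2 or cisplatin replicate 2 or 3, at 1.34 to 1.62. Scaled by library size only, FANCG (0.64, adjusted p = 0.106), RAD51C (0.48, adjusted p = 0.125), XRCC2 (0.81), FANCE (0.65) and RAD54L (1.51) were not called. Other genes gained a call. ERCC1 (-0.87) and FANCI (-0.50) were called lower without cisplatin replicate 1, and also with library size only (-0.80 and -0.63). Without cisplatin replicate 3, SLX4 (-1.49) and BRCA1 (-0.91) were called lower and FAN1 (0.70) higher. Of all genes, 2781 of 11332 were lower and 2347 higher without cisplatin replicate 1. Without cisplatin replicate 3 these were 2532 and 2234 of 11395.

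**Figure D2:**
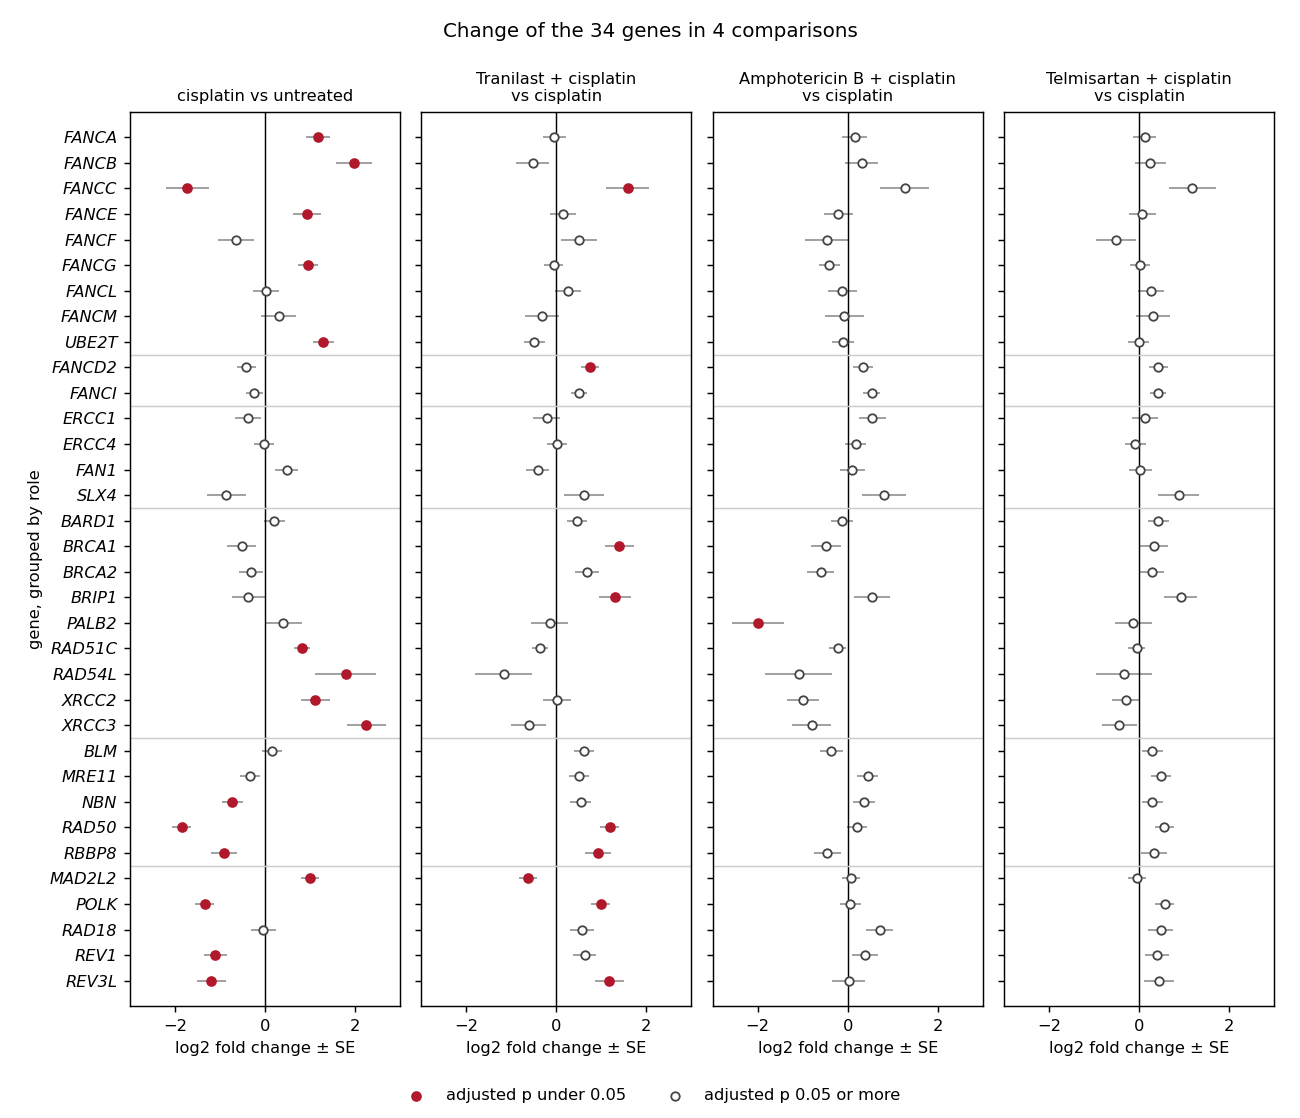
Log2 fold change ± SE of the 34 genes (rows, grouped by role) in cisplatin against untreated cells and in each drug combination against cisplatin alone; filled points have an adjusted p under 0.05. With cisplatin 10 genes lie to the right and 7 to the left among filled points, with Tranilast 8 and 1, with Amphotericin B 0 and 1, and with Telmisartan there are 0 filled points.

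The direction of the change moved with the length of the gene, a property that the choice of genes did not use. Gene span is the distance from start to end in GENCODE 29 on GRCh38. Of the 6 genes under 30 kb, 5 rose and 0 fell. Between 30 and 80 kb, 5 of 15 rose and 1 fell. Of the 13 genes over 80 kb, 0 rose and 6 fell. The median span was 24.3 kb among the 10 genes that rose, 90.3 kb among the 7 that fell and 75.5 kb among the other 17.

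All genes tested showed the same gradient. Below 30 kb 35.4% of them rose and 7.78% fell, from 30 to 80 kb 9.7% rose and 22.7% fell, and above 80 kb 2.47% rose and 61.7% fell. The Spearman correlation of span with the log2 fold change was -0.62 over the 34 genes and -0.60 over the 10964 genes with a known span. These are correlations across genes that share the same 6 libraries, and genes are not independent replicates. The median log2 fold change of all genes was 0.45 below 30 kb, -0.20 from 30 to 80 kb and -1.10 above 80 kb. Some of the 34 genes lay away from these medians and others near them. FANCF spans 2.95 kb and had a value of -0.64, whereas FANCA spans 79.1 kb and rose by 1.19. RAD50, POLK and REV1 span 90.3, 89.4 and 89.6 kb and had values of -1.85, -1.34 and -1.10. REV1 was thus at the median of all genes above 80 kb, whereas BLM, at 98.8 kb, had 0.16.

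**Figure D3:**
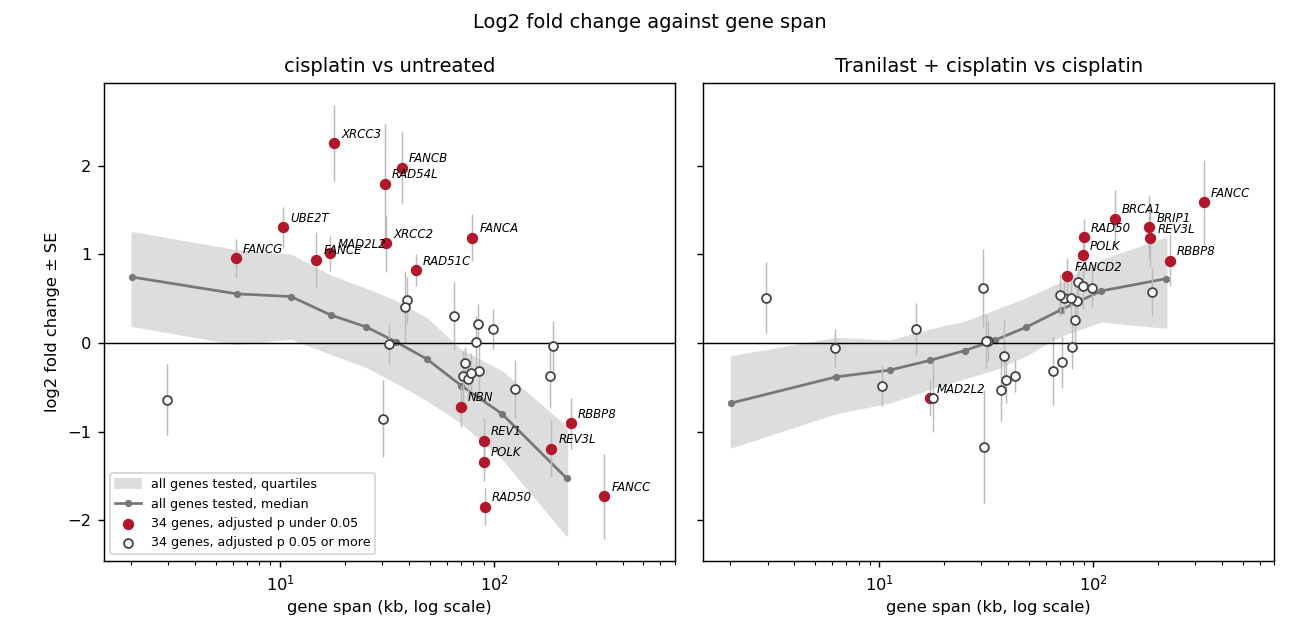
Log2 fold change (± SE) of the 34 genes against gene span in kb on a log axis, for cisplatin against untreated cells (left) and Tranilast + cisplatin against cisplatin (right); the gray line and band give the median and quartiles of all genes tested, in 10 bins of span. On the left most genes under 30 kb lie above and most over 80 kb below 0, with FANCF and BLM among the exceptions and a Spearman correlation of -0.62 over the 34 genes, and on the right the slope is the opposite, with 0.76; both panels share the 3 cisplatin libraries.

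RefSeq promoters (GRCh38.p14) were given for 32 of the 34 genes, all but FANCI and NBN. In the 250 bases before each start, 5 motifs were searched on both strands, and a gene with several starts was counted once if any of them had a match. The CCAAT box (CCAAT, or ATTGG on the other strand) was in 13 of 32 promoters, 40.6%, beside 37.0% of all 27305 genes with a promoter entry and 41.9% of those tested. It was in 5 of the 10 genes that rose and in 0 of the 6 with an entry that fell. An E2F-type motif, which was searched as TTTCGCG and, with other letters in the middle, as TTTGGCG and then also as TTTCCCG, was in 5 of 32, 15.6%, beside 7.44% of all and 12.8% of tested genes, and in 1 of the 10 that rose and 3 of the 6 that fell. The ETS motif CCGGAAG was in 8 of 32 (25%, with 10.2% of all genes and 20.6% of tested genes), the NRF1-type motif TGCGCA in 7 (21.9%, with 8.28% and 15.2%) and the cell cycle homology motif (spelled TTTGAA, or with a C in the middle TTCGAA) in 4 (12.5%, with 17.2% and 13.0%). The ETS motif was in 0 of the 10 that rose, 1 of the 6 that fell and 7 of the 16 not called. For the NRF1-type motif these were 2, 1 and 4, and for the cell cycle homology motif 1, 1 and 2. The CCAAT box was in 8 and the E2F-type motif in 1 of the 16 not called. Shares among all genes that rose or fell were not computed. A match to so few letters is a description of the window and not a binding site. The 100 bases before the start are shown for 3 genes that rose, UBE2T, XRCC3 and FANCA, and 3 that fell, RAD50, REV3L and FANCC. They were picked because they hold CCAAT or E2F-type matches, and the motifs above are in capitals.
UBE2T: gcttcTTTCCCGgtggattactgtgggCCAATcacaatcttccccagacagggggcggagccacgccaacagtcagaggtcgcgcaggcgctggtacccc
XRCC3: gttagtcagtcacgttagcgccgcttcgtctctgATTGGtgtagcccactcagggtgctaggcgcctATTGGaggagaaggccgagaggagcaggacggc
FANCA: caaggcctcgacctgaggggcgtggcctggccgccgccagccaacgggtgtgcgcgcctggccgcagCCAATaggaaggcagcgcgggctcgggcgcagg
RAD50: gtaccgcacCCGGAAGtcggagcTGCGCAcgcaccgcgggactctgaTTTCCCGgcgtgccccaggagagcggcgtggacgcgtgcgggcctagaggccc
REV3L: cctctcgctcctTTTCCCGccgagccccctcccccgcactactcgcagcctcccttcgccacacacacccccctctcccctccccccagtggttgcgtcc
FANCC: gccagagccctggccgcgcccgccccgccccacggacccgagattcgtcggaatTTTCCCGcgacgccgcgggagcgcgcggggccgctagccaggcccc

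On GRCh38.p14 these stretches lie at chr1:202341937-202342036 for UBE2T, chr14:103715452-103715551 for XRCC3, chr16:89816648-89816747 for FANCA, chr6:111483219-111483318 for REV3L and chr9:95317710-95317809 for FANCC, on the minus strand, and at chr5:132556877-132556976 on the plus strand for RAD50. REV3L and FANCC have a further start in the table whose 100 bases hold none of the 5 motifs.

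With Tranilast, most of the genes called against cisplatin alone were higher. Here 9 of the 34 genes were called (26.5%, with 22.2% of all genes tested), 8 higher (10.5% of all genes) and 1 lower (11.6% of all genes). At unadjusted p under 0.05 there were 16 genes (37.0% of all genes), and the libraries did not overlap for 19 of 34 (40.3% of all genes). The median log2 fold change of the 34 genes was 0.49, beside 0.02 over all genes of any span. All genes in bins of span with medians of 70.3, 109 and 219 kb had 0.37, 0.59 and 0.72, and those at 2.03 kb had -0.68. Of the 34 genes, 6 span under 30 kb, 15 from 30 to 80 kb and 13 more than 80 kb. The part of span in the median and the calls with Tranilast was not tested. This comparison shares the cisplatin libraries with the previous one, so the values of the untreated libraries are given beside it. Scaled by library size only, which moved the median of all genes to 0.46, the split was 15 higher and 0 lower, beside 23.2% and 3.57% of all genes. Without cisplatin replicate 2, or without Tranilast replicate 3, 4 genes were called, BRCA1, FANCD2, POLK and RAD50, which is 11.8% of the genes, beside 10.4% and 9.66% of all genes.

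BRCA1, the E3 ligase that promotes end resection, showed the largest rise among the mediators of homologous recombination. With Tranilast + cisplatin it was at 349, 338 and 298 CPM, beside 81.2, 109 and 181 CPM with cisplatin alone and 150.5, 206 and 177 CPM in untreated cells. The Tranilast libraries lay above each library of both other groups, and against cisplatin the change was 2.64-fold (log2 1.40 ± 0.33, adjusted p = 0.0069). BRIP1, the BRCA1-associated helicase, was at 21.6, 18.3 and 24.1 CPM, beside 10.1, 8.83 and 7.15 with cisplatin and 11.8, 10.6 and 10.9 in untreated cells (log2 1.31 ± 0.35 against cisplatin, adjusted p = 0.0149). It too exceeded both other groups without overlap. FANCD2 was at 59.5, 46.1 and 49.6 CPM, above both other groups, with a log2 fold change of 0.75 ± 0.21 (adjusted p = 0.0166).

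Other genes that were higher with Tranilast did not exceed the untreated range. RAD50 was at 178, 170.1 and 195 CPM, between the cisplatin and the untreated libraries and apart from both, 2.28-fold above cisplatin (log2 1.19 ± 0.21, adjusted p = 0.0020). POLK was at 57.7, 59.4 and 54.6 CPM, likewise between them (log2 0.99 ± 0.22, adjusted p = 0.0053). RBBP8 was at 219.6, 235 and 241 CPM, within the untreated range of 211 to 247 (log2 0.93 ± 0.29, adjusted p = 0.0285). REV3L, at 36.1, 35.4 and 38.1 CPM, and FANCC, at 8.19, 8.18 and 8.12 CPM, also lay inside the untreated range. Their log2 fold changes against cisplatin were 1.18 ± 0.32 (adjusted p = 0.0156) and 1.58 ± 0.48 (adjusted p = 0.0260).

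MAD2L2 was the gene that fell with Tranilast, to 55.8, 49.9 and 43.6 CPM (log2 -0.62 ± 0.20, adjusted p = 0.0334), below each cisplatin library and above each untreated one. The Fanconi core and E2 genes that had risen with cisplatin were not called with Tranilast. UBE2T was at 29.03, 25.9 and 33.9 CPM (-0.49, adjusted p = 0.126), FANCB had -0.53, FANCG -0.06 and FANCA -0.04. XRCC2 at 49.5, 42.0 and 43.8 CPM and XRCC3 at 16.4, 19.9 and 12.4 CPM had values of 0.02 and -0.62 and were not called.

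Several calls with Tranilast were close to the threshold. RBBP8 was lost without any 1 of cisplatin replicates 1 and 2 and the 3 Tranilast replicates (0.67 to 0.97, adjusted p from 0.0550 to 0.0836). FANCC was lost without cisplatin replicate 2 (1.30, adjusted p = 0.119) or any 1 of the Tranilast replicates (1.59 each). MAD2L2 was lost without cisplatin replicate 2 or Tranilast replicate 2 or 3 (-0.62 to -0.53), and with library size only (-0.17), and FANCD2 without Tranilast replicate 1 (0.65, adjusted p = 0.0683). BRIP1 (1.33 and 1.21) and REV3L (1.16 and 1.15) were lost without cisplatin replicate 2 and without Tranilast replicate 3, whereas BRCA1, POLK and RAD50 were called whichever library was left out.

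Gene span was again related to the values. Its Spearman correlation with the log2 fold change of Tranilast + cisplatin against cisplatin was 0.76 over the 34 genes and 0.54 over 10964 genes. For Telmisartan these were 0.74 and 0.39, for Amphotericin B 0.31 and 0.18. These 3 comparisons share the 3 cisplatin libraries with each other and with the comparison to untreated cells.

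**Figure D4:**
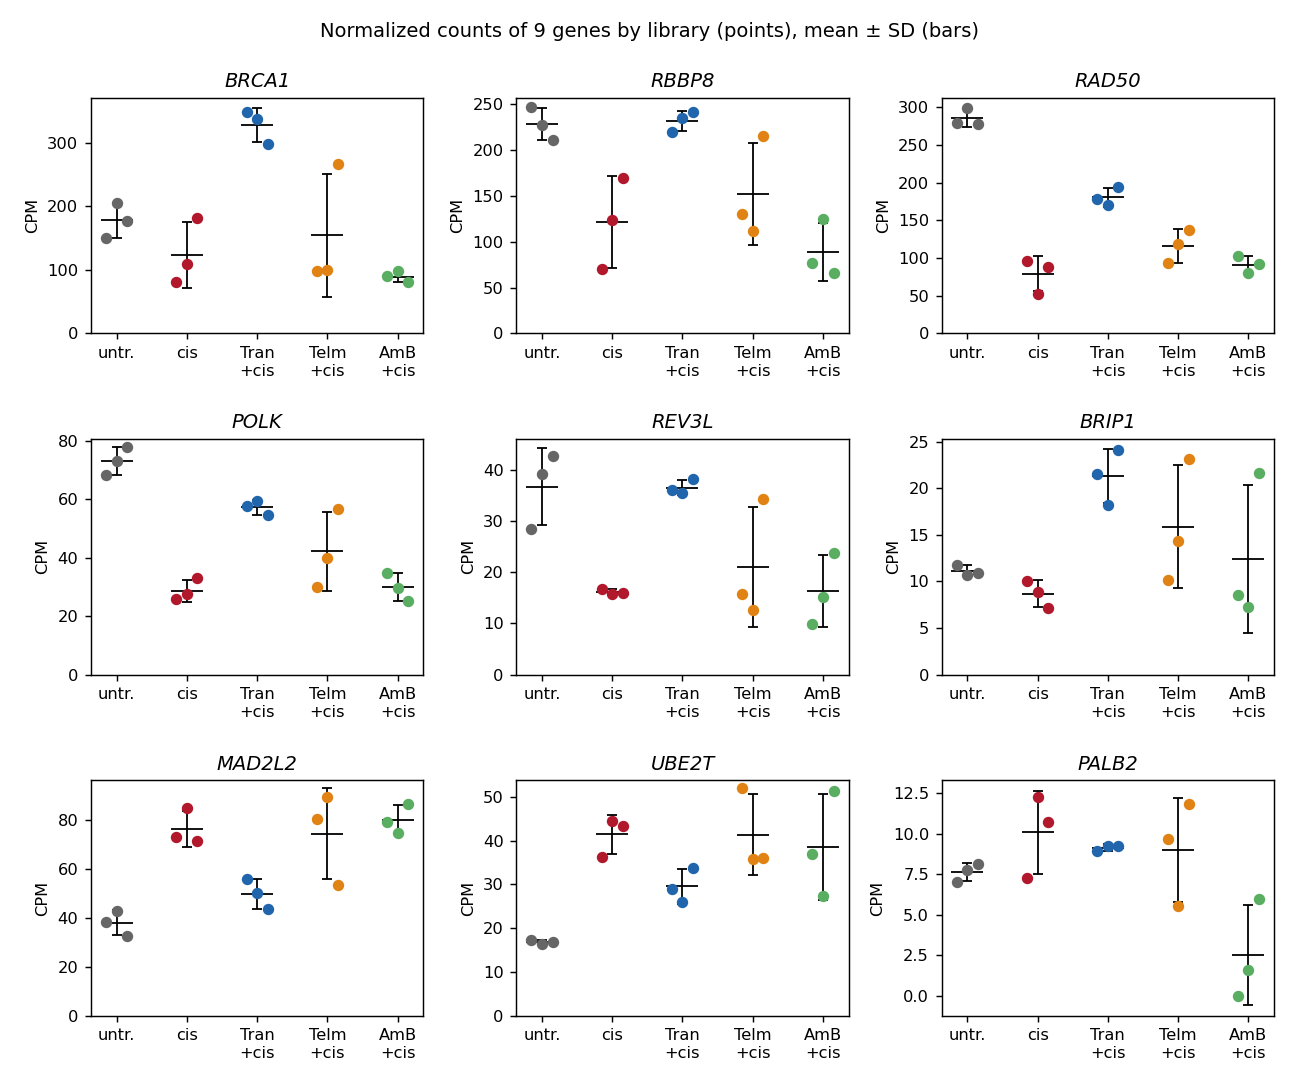
CPM of 9 genes in each library (points) with the mean ± SD of each condition (bars, n = 3); untr., untreated; cis, cisplatin; Tran, Tranilast; Telm, Telmisartan; AmB, Amphotericin B. BRCA1 is highest in the 3 Tranilast libraries (298 to 349 CPM), RAD50 is lower in each treated library than in untreated cells, and 1 of 3 Telmisartan libraries lies above the other 2 for BRCA1, RBBP8, POLK and REV3L.

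Few of the 34 genes were called with Amphotericin B against cisplatin alone. Only PALB2 was called, which is 2.94% of the genes, beside 13.2% of all genes tested, of which 4.21% were higher and 9.01% lower. The median log2 fold change was 0.04 (all genes -0.04). At unadjusted p under 0.05 there were 5 of 34 genes and 31.6% of all genes, and the libraries did not overlap for 3 of 34 genes and 24.6% of all genes. PALB2, which bridges BRCA1 and BRCA2, was at 0, 1.60 and 5.96 CPM with Amphotericin B + cisplatin, beside 7.28, 12.3 and 10.7 CPM with cisplatin alone and 7.01, 7.77 and 8.15 CPM in untreated cells. The Amphotericin B libraries lay below both other groups, at -1.999 ± 0.57 against cisplatin (adjusted p = 0.0309). This value rests on 0, 2 and 8 reads, and without cisplatin replicate 2 or 3, or without Amphotericin B replicate 1 or 2, PALB2 was not called, with -1.82 without cisplatin replicate 2 and -1.40 without Amphotericin B replicate 1.

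Without cisplatin replicate 1, the library that stood apart, 6 genes were called with Amphotericin B, PALB2 and XRCC2 and XRCC3 lower and ERCC1, FANCI and RAD18 higher. This is 17.6% of the genes, beside 33.8% of all genes without that library. In that fit XRCC2 had -1.22, XRCC3 -1.10, ERCC1 1.07, FANCI 0.82 and RAD18 0.96. Telmisartan replicate 3 enters this comparison through the filter, the TMM factors and the shared estimate of spread. Without it, 4 genes were called (11.8%, beside 20.6% of all genes).

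With Telmisartan 0 of the 34 genes were called by edgeR's quasi-likelihood test, and 0.0% of all genes. The smallest adjusted p among them was 0.376, for RAD50. At unadjusted p under 0.05 there were 6 genes, all higher (RAD50, POLK, BRIP1, FANCC, FANCI and MRE11), which compares with 10.3% of all genes, and DESeq2 and limma-voom also called 0. The libraries did not overlap for 1 of the 34 genes, BRIP1, and for 9.27% of all genes. The 3 Telmisartan libraries were far from alike. BRCA1 was at 97.98, 99.4 and 267 CPM, and BRCA2 at 32.7, 37.0 and 84.8 CPM, with the high value in replicate 3 each time. REV3L was at 15.8, 12.7 and 34.4 CPM and RBBP8 at 129.6, 112 and 215 CPM, so that replicate 3 sat near the Tranilast libraries for these genes and replicates 1 and 2 near cisplatin alone. Mitochondrial ribosomal RNA was 3.61% in that replicate against 10.8% and 12.9% in the other 2. Without cisplatin replicate 1, RAD50 (0.75) and FANCI (0.71) were called higher with Telmisartan, which is 5.88% of the genes, beside 4.81% of all genes in that fit.

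The drugs were also compared directly, each in the presence of cisplatin. Between Tranilast and Amphotericin B, 10 of the 34 genes were called (29.4%, with 36.0% of all genes tested), 9 higher with Tranilast and 1 lower. The corresponding shares of all genes were 19.7% and 16.4%, and the median was 0.29, beside 0.15 for all genes. Scaled by library size only, which moved the median of all genes to 0.81, the split was 20 and 0, beside 47.8% and 6.87% of all genes. Of the mediators of homologous recombination 4 of 9 were higher with Tranilast, of the resection and dissolution genes 3 of 5, of the Fanconi core genes 0 of 9. BRCA1 stood at 90.3, 97.8 and 80.5 CPM with Amphotericin B, far below the Tranilast libraries (log2 1.87 ± 0.34 for Tranilast over Amphotericin B, adjusted p = 0.0011). BRCA2, which acts in strand exchange during homologous recombination, was at 70.3, 65.4 and 72.9 CPM with Tranilast and 33.4, 22.5 and 29.1 CPM with Amphotericin B (1.29 ± 0.29, adjusted p = 0.0034). In untreated cells it was at 50.7, 53.2 and 57.0 CPM, between those groups and apart from both.

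RBBP8 at 76.8, 125 and 65.6 CPM with Amphotericin B gave a difference of 1.38 ± 0.30 (adjusted p = 0.0027). RAD50 at 102, 80.2 and 91.7 CPM gave 0.98 ± 0.21 (adjusted p = 0.0025), and POLK at 34.8, 29.7 and 25.3 CPM gave 0.93 ± 0.22 (adjusted p = 0.0049). All these libraries lay below those with Tranilast. BLM, the helicase that dissolves recombination intermediates, was at 31.6, 37.9 and 38.4 CPM with Tranilast and 23.5, 14.4 and 16.4 CPM with Amphotericin B (0.99 ± 0.24, adjusted p = 0.0052). REV3L was at 9.96, 15.2 and 23.9 CPM with Amphotericin B (1.16 ± 0.34, adjusted p = 0.0141). XRCC2 was at 16.4, 34.5 and 16.4 CPM (1.02 ± 0.34, adjusted p = 0.0276), and PALB2 gave 1.85 ± 0.56 (adjusted p = 0.0170). MAD2L2 was higher with Amphotericin B, at 78.9, 74.6 and 86.5 CPM (-0.69 ± 0.20, adjusted p = 0.0148). For these 10 genes the libraries of the 2 drugs did not overlap, and this held for 15 of the 34 genes and 55.2% of all genes tested. At unadjusted p under 0.05 there were also 15 genes, beside 46.4% of all genes. XRCC2 was not called without Tranilast replicate 1 or 3 or Amphotericin B replicate 1 or 3 (0.80 to 1.05), PALB2 without Amphotericin B replicate 1 or 2 (1.25 and 1.64), REV3L without Amphotericin B replicate 1 (0.91) and MAD2L2 without Tranilast replicate 3 (-0.59) or with library size only (-0.03).

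Between Tranilast and Telmisartan 0 of 34 genes were called, beside 2.34% of all genes (0.585% higher and 1.75% lower with Tranilast), and the smallest adjusted p was 0.0698, for BRCA1. At unadjusted p under 0.05 there were 8 genes, beside 22.6% of all genes, and the libraries did not overlap for 7 genes, beside 26.0%. DESeq2 called 3, BRCA1 (1.04), MAD2L2 (-0.63) and RAD50 (0.58), which is 8.82% of the genes, beside 9.18% of all genes by DESeq2. Without Telmisartan replicate 3 the edgeR count was 8 of 34, or 23.5%, beside 24.4% of all genes in that fit, with BRCA1 at 1.74, FANCF 1.95, REV3L 1.36, BRCA2 1.005, RBBP8 0.95, RAD50 0.78 and POLK 0.72 higher and MAD2L2 at -0.77 lower with Tranilast. Telmisartan and Amphotericin B differed in 0 of 34 genes and 0.0% of all genes, by edgeR's quasi-likelihood test, with a smallest adjusted p of 0.123, and DESeq2 called 0. At unadjusted p under 0.05 there were 7 genes (20.5% of all genes), each higher with Telmisartan, and the libraries did not overlap for 3 genes (22.4% of all genes).

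The other genes of the pathway were taken from a list of 58 repair and checkpoint genes, which were all tested. With cisplatin 11 of 58 rose and 10 fell, which is 36.2%, beside 44.7% of all genes, with a median of 0.25. The smallest adjusted p among those that rose were of CLSPN, the checkpoint adaptor claspin (1.99 ± 0.32, adjusted p = 0.00011), of RNF168, a ubiquitin ligase of damaged chromatin (1.09 ± 0.21, adjusted p = 0.00045), and of CENPX, a histone-fold partner of FANCM (1.55 ± 0.31, adjusted p = 0.00069). Among those that fell, HLTF, a ligase that polyubiquitinates PCNA, had -1.49 ± 0.22 (adjusted p = 5.14e-05) and MUS81, a structure-specific nuclease, -1.29 ± 0.23 (adjusted p = 0.00027). RAD51B, a partner of RAD51C, was at 5.74, 8.06 and 5.60 CPM in untreated cells and at 0.560, 0.491 and 0 CPM with cisplatin (adjusted p = 0.00030).

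Against cisplatin, 5 of the 58 genes rose with Tranilast and 3 fell (13.8%, beside 22.2% of all genes), led by CENPX (-1.32 ± 0.30, adjusted p = 0.0065), UBE2A, the E2 of RAD18 (-1.06 ± 0.25, adjusted p = 0.0069), and MUS81 (0.83 ± 0.23, adjusted p = 0.0164). With Amphotericin B 2 rose and 5 fell (12.1%, beside 13.2% of all genes). RNF168 (-0.99 ± 0.21, adjusted p = 0.0081), RNF8, the ligase that acts before it (-1.10 ± 0.25, adjusted p = 0.0115), and RMI1, a partner of BLM (-1.74 ± 0.42, adjusted p = 0.0137), had the smallest adjusted p. With Telmisartan 0 of 58 were called and 2 had an unadjusted p under 0.05, beside 0.0% and 10.3% of all genes. DNA replication genes set beside them rose together with cisplatin. Of these 23 genes, 21 were called higher (91.3%, beside 21.1% of all genes), with a median of 1.44. Of 20 mitotic genes 8 fell and 2 rose, which is 50.0%, beside 44.7% of all genes. Against cisplatin, 0 of the 23 replication genes rose and 2 fell with Tranilast, which is 8.7%, beside 22.2% of all genes.

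Counting near a neighbor limits some of these values. At the 3′ kilobase, 8 of the 34 genes overlap a gene on the opposite strand that had at least 100 reads, and whether the counting used strand is not given in the sources used here, so reads of the partners cannot be told apart. XRCC3 (586 reads in all libraries) overlaps KLC1 (3845 reads), which had a log2 fold change of -0.89 with cisplatin where XRCC3 had 2.25. REV1 (797 reads) overlaps EIF5B (26238 reads), which fell by 0.75 on the log2 scale where REV1 had -1.10. FANCA (782 reads) overlaps ZNF276 (764 reads), which had 0.13, and RAD54L (154 reads) overlaps LRRC41 (696 reads), which had 0.06. FANCI (3480 reads) overlaps POLG (1593 reads), which had 0.93 where FANCI had -0.23. ERCC1 (1377 reads) overlaps CD3EAP (5925 reads). FANCL (572 reads) overlaps VRK2 (1654 reads), which had -0.45, and FAN1 (737 reads) overlaps MTMR10 (226 reads), which had -0.46.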

How the data were processed

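IGROV-CP20 cells were analyzed in 15 libraries, grouped by the labels, with 3 biological replicates for each of 5 conditions. Doses follow the methods of the study. The authors deposited raw read counts per Ensembl gene, whole numbers without normalization, made from 75 bp QuantSeq reads. The submitters' processing notes name STAR 2.3.0, HTSeq and hg19. The annotation and strand setting are not given in the sources used here. Gene names and spans come from GENCODE 29 (GRCh38), which holds 45776 of 47634 identifiers, and no coordinate was converted.

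Counts were analyzed with edgeR 4.0.16 in R 4.3.3. The filterByExpr function kept 11113 genes, and TMM factors and a quasi-likelihood fit with 1 mean per condition used 15 libraries. The p was two-sided and adjusted by Benjamini-Hochberg within each of 7 comparisons (threshold 0.05). The standard error was taken as the absolute log2 fold change divided by the root of the F statistic. The procedure was run on simulated data, where the share of changed genes to be recovered was lowered after a first run had fallen short of it. Reaching the lowered share is therefore no support for the procedure. Total counts were 2691832 to 3392054 (untreated), 2171154 to 2488037 (cisplatin), 2164344 to 3517041 (Tranilast), 2211259 to 2983548 (Telmisartan) and 1510620 to 1872639 (Amphotericin B). A floor of 3 counts is 8.53e-05% to 0.000199% of a library, for counting error only.

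The gene list was given, and it, the roles, the other lists and the motifs were chosen with earlier results of these data known. The genes with values in each library are those called in a drug comparison, the 10 of smallest adjusted p with cisplatin and those called between drugs. From the 58 other repair genes, the 3 of smallest adjusted p are named, in each direction for cisplatin. Other genes in the text were chosen after their values were seen. UHRF1 and PECAM1 were not used here. Alternatives used DESeq2 1.42.0, limma 3.58.1, RLE factors, library size only, no filter, CPM above 1 in 3 libraries, the 6 libraries of a comparison (also with a likelihood ratio test), a replicate block, a threshold of 0.01 and each library left out. Summaries used Python 3.11.15 with pandas 2.3.3 and scipy 1.17.1, and figures matplotlib 3.10.9.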

Additional observations from a re-analysis of the deposited data

Results flagged for a closer look

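The effects of Tranilast and Amphotericin B, each added to cisplatin, differed by the direct edgeR quasi-likelihood test in 10 of the 34 genes. This is 29.4%, below the share of all genes tested, which was 36.0%. The log2 difference, Tranilast over Amphotericin B, was 1.87 for BRCA1 (adjusted p = 0.0011), 1.85 for PALB2 (0.0170), 1.38 for RBBP8 (0.0027), 1.29 for BRCA2 (0.0034) and 1.16 for REV3L (0.0141). It was 1.02 for XRCC2 (adjusted p = 0.0276), 0.99 for BLM (0.0052), 0.98 for RAD50 (0.0025), 0.93 for POLK (0.0049) and -0.69 for MAD2L2 (0.0148). In each of these 10 genes the 3 libraries of either drug lay on separate sides, which also held for 55.2% of all genes tested. Mitochondrial ribosomal RNA was 2.10% to 2.53% of counts with Tranilast and 12.3% to 14.8% with Amphotericin B, so that its share and the drug cannot be told apart here.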

How the results depend on the processing

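Of 37 calls in the 34 genes, 19 held in each of 25 alternatives, 18 were lost in at least 1, and 0 changed direction. Those that held were FANCA, FANCB, FANCC, MAD2L2, POLK, RAD50, REV1, REV3L, UBE2T and XRCC3 with cisplatin, BRCA1, POLK and RAD50 with Tranilast, and BLM, BRCA1, BRCA2, POLK, RAD50 and RBBP8 between Tranilast and Amphotericin B. With library size only, the median of all genes moved from -0.01 to -0.36 for cisplatin, from 0.02 to 0.46 for Tranilast and from 0.15 to 0.81 between Tranilast and Amphotericin B. The split for cisplatin became 5 higher and 9 lower in place of 10 and 7, beside 9.17% and 30.2% of all genes. That for Tranilast became 15 higher and 0 lower in place of 8 and 1, beside 23.2% and 3.57%. Between Tranilast and Amphotericin B it became 20 and 0 in place of 9 and 1, beside 47.8% and 6.87%. Counts of calls for Tranilast and for Tranilast against Amphotericin B were 3 and 6 at a threshold of 0.01, for which the share of all genes is not given here. For Amphotericin B, where the count was 1, it was 0 at 0.01 and in the fit of 6 libraries, the latter beside 0.967% of all genes. It was 2, or 5.88%, with RLE factors, with no filter and with DESeq2, beside 12.7%, 7.84% and 16.3% of all genes. The likelihood ratio test on 6 libraries called 16 between Tranilast and Amphotericin B (47.1%, beside 52.8% of all genes). It called 1 between Tranilast and Telmisartan (2.94%, beside 8.87%). With no filter, where 24733 genes were tested, there was 1 in the latter (2.94%, beside 4.08%). There were then 4 between Telmisartan and Amphotericin B (11.8%, beside 3.46%). DESeq2 called 3 between Tranilast and Telmisartan (8.82%, beside 9.18%). Leaving out single libraries gave 13 to 19 calls for cisplatin, 4 to 12 for Tranilast (4 without cisplatin replicate 2 or Tranilast replicate 3), 0 to 6 for Amphotericin B and 0 to 2 for Telmisartan (2 without cisplatin replicate 1). For cisplatin, the 13 without untreated replicate 1 are 38.2%, beside 35.0% of all genes. The 12 for Tranilast without Telmisartan replicate 3 stood beside 1698 lower and 1571 higher of 11328 genes. Without cisplatin replicate 1, the 19 for cisplatin stood beside 2781 lower and 2347 higher of 11332 genes. The 6 for Amphotericin B in that fit stood beside 1949 and 1885. Leaving out single libraries gave 8 to 13 between Tranilast and Amphotericin B, 0 to 8 between Tranilast and Telmisartan (8 without Telmisartan replicate 3) and 0 to 1 between Telmisartan and Amphotericin B. Without Telmisartan replicate 3, the 13 stood beside 2052 lower and 2568 higher of 11328 genes. The 8 between Tranilast and Telmisartan in that fit stood beside 1453 and 1307. Without Tranilast replicate 3, the 8 between Tranilast and Amphotericin B stood beside 1299 and 1519 of 11326. The replicate block gave 17, 9, 1 and 0 calls for cisplatin, Tranilast, Amphotericin B and Telmisartan. These are 50.0%, 26.5%, 2.94% and 0.0%, beside 44.8%, 22.7%, 13.4% and 0.0% of all genes. It gave 11 between Tranilast and Amphotericin B (32.4%, beside 35.8%) and 1, BRCA1, between Tranilast and Telmisartan (2.94%, beside 3.99%). Equal replicate numbers correlated over 0.1 in 3 of 30 pairs, so they were not taken as pairs. The highest values were between cisplatin alone and Telmisartan + cisplatin, with 0.31 for replicate 1, -0.17 for replicate 2 and 0.63 for replicate 3. A pairing in that comparison was tested only through the replicate block. Reads over the 15 libraries were fewest for RAD54L (154), FANCM (172), FANCC (273) and PALB2 (327).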
